A study of Rattus norvegicus with 2 samples.

Results

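Transcripts of heat shock proteins and chaperones were measured in rat dorsal root ganglia (DRGs), the ganglia beside the spinal cord that hold the cell bodies of sensory neurons (SNs). They comprised 84 of the 14217 genes that 1 symbol names on the array. A gene was included if its symbol began with Hspa, Hspb, Hspd, Hspe, Hsph, Hsp90, Dnaja, Dnajb or Dnajc, began with Cct, Bag or Pdia followed by a number, or was Calr or Canx. These genes had 125 probe sets, groups of short probes against a transcript whose brightness is summarised as 1 signal, and the probe set brightest on average over both arrays stood for each gene. By the place where the protein works, 54 were cytosolic (nuclear ones included), 9 mitochondrial and 19 of the endoplasmic reticulum (ER), and Dnajc22 and Hspbap1 were left unplaced. The tumor-side DRGs came from 4-week-old female SD rats that had been given an inoculum of 100000 IP-B12 cells, which derive from a rat lung carcinoma and destroy bone, in the right tibial marrow cavity 14 days before. The control-side DRGs were those of the left tibia, so both sides belonged to tumor-bearing animals, and no injection of the left tibia was described. RNA of the tumor side was hybridised to 1 GeneChip Rat Genome 230 2.0 Array and RNA of the control side to 1 more. How many rats or ganglia gave the RNA is not stated in the sources used here. With 1 array per side there was no replicate error and no test, and each ratio describes these 2 arrays.

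Chaperones bind unfolded or partly folded proteins and help them fold, assemble, cross membranes or reach degradation. Hsp70 proteins bind and release their clients in a cycle of ATP hydrolysis that J proteins start and that Hsp110 and Bag proteins reset, while Hsp90 acts on clients that are nearly folded and the barrel-shaped chaperonins enclose them. In the ER, BiP and GRP94 are the Hsp70 and Hsp90, calnexin and calreticulin hold glycoproteins, and protein disulfide isomerases join cysteines. Cells raise cytosolic chaperones through heat shock factors and ER chaperones through the unfolded protein response, and SNs, which make ion channels, peptides and long axons, use all of these systems.

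The promoter sequences of a few of these genes hold a match to the recognition element of 1 of these responses. RefSeq promoters of the assembly GRCr8, which run 250 bases before to 50 after the annotated start, were found for 70 of the 84 genes. The ER stress element was searched as CCAAT, any 9 bases and CCACG on both strands. It was present in 5 of the 70, all of them among the 17 ER genes with a promoter (29.4%), and in 22 of the 33469 promoters of the table (0.0657%). It was in 0 of 45 cytosolic and 0 of 7 mitochondrial promoters. The matches are shown because they name the ER genes whose promoters hold this element, with CCAAT and CCACG, or the same letters on the other strand, in capitals, 5′ to 3′ along the gene.
Hspa5: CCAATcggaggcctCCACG
Hsp90b1, nearer the start: CGTGGtgaggcacgATTGG
Hsp90b1, farther from the start: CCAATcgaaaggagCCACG
Calr: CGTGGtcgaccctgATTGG
Canx: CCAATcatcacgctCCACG
Dnajc3: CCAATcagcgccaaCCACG
In GRCr8 these lie at chr3:38452973-38452991 on the plus strand for Hspa5, at chr7:23012347-23012365 and chr7:23012451-23012469 on the minus strand for Hsp90b1, at chr19:40213135-40213153 on the plus strand for Calr, at chr10:35158069-35158087 on the minus strand for Canx and at chr15:102432534-102432552 on the plus strand for Dnajc3. Counting back from the base before the start as -1, their first bases lay at -43 for Hspa5, -72 and -176 for Hsp90b1, -232 for Calr, -230 for Canx and -133 for Dnajc3. The 250 bases before the Hspa5 start, chr3:38452766-38453015 on the plus strand, are given whole with the element in capitals, since Hspa5 encodes BiP, the Hsp70 that holds the sensors of the unfolded protein response in check.
Hspa5 promoter: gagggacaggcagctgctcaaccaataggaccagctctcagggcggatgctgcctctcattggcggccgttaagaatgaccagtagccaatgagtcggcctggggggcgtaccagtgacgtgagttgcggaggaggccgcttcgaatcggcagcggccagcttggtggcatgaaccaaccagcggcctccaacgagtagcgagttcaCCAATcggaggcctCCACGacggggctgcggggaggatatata

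The heat shock element was searched as 3 units, GAA and TTC in turn with any 2 bases between units, on both strands. It was found in 5 of the 70 promoters (7.14%), those of Dnaja1, Hsph1, Cct4, Hspd1 and Hspe1, and in 267 of the 33469 (0.798%). The units are in capitals.
Dnaja1: GAActTTCcaGAA
Hsph1: TTCtgGAAagTTC
Cct4: TTCtgGAAggTTC
Hspe1: TTCtaGAAccTTC
The sites of Dnaja1 (chr5:60638413-60638425), Hsph1 (chr12:10427332-10427344) and Cct4 (chr14:101193082-101193094) lie on the plus strand, as does that of Hspe1 (chr9:64084262-64084274). Hspd1 and Hspe1, which encode the mitochondrial chaperonin and its lid, face away from each other with starts 290 bases apart, and their promoter windows share 211 bases. They therefore share this site, and a further match overlaps it at chr9:64084267-64084279, so 5 promoters with the element hold 4 separate places in the genome. The shorter element of 2 units, GAA and TTC in either order with any 2 bases between, which the longer one contains, was in 18 of 70 (25.7%) against 15.9% of all promoters. Such a match gives the letters in the window and does not show that a factor binds there.

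The tumor-side array was slightly brighter, with a median signal of 72.7 against 69.0 on the control-side array and a trimmed mean 5.98% higher. A signal rule kept genes with a signal at or above the array median on at least 1 of the arrays, which 9695 of the 14217 genes did. Their median log2 ratio, tumor side to control side, was 0.08, a fold of 1.057, and ratios of chaperones are read against this median gene. Probe sets of the same gene gave a technical spread, which holds no variation between animals or ganglia and does not stand for a replicate error, with a log2 ratio SD of 0.18 above the rule, 0.25 near a signal of 100 and 0.10 near 1000. SN markers were bright on both sides, with summed signals of 42605 on the tumor side and 42899 on the control side over the 8 of 9 listed genes that were measured, and their median log2 ratio was -0.02. Markers of other tissues differed, and in bulk ganglia fewer cells of a type and less RNA per cell cannot be told apart. Of all 10 measured skeletal muscle markers, 9 were lower on the tumor side by a fold of 2 or more, but most were dim there. Of the 8 above the signal rule, 6 reached it on the control side only, and of the 2 that reached it on both sides 1 was lower by a fold of 1.5. The 8 summed to 2148 on the tumor side and 2818 on the control side, and without Myh1, which was higher and made up most of the sum, to 405 and 1235. The 3 granulocyte markers summed to 528 and 1141. Of 7 bone and osteoclast markers, 5 were higher by a fold of 1.5 or more, with sums of 11598 on the tumor side and 10057 on the control side, and of 3922 and 2415 without Spp1. Median log2 ratios were 0.07 over 4 Schwann cell, 0.12 over 2 satellite glia, -0.17 over 3 smooth muscle, -0.48 over 2 erythroid and -0.03 over 4 immediate early genes, and 0 of 3 measured markers of plasma and B cells, which are rich in ER, were above the rule.

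Chaperone signals differed little between the sides. Of the 84 genes, 73 were above the signal rule. On the tumor side none of the 73 was higher by a fold of 1.5, against 1.19% of all 9695 genes, and 1, Dnajb5, was lower by that fold, against 0.743%. At least 25% higher on the tumor side were 2 (Dnajc1 and Dnajc3), against 7.54% of all genes, and at least 20% lower were 3 (Dnajb5, Dnajc11 and Dnajc18), against 3.01%. Both limits stand for the same fold in either direction. All 5 are J proteins, which make up 35 of the 73 and had a median tumor-side signal of 547, against 960 over the 73. Ratios above that of the median gene were found for 37 of 73 (50.7%), with 50% of all genes above it by definition. The median log2 ratio was 0.08 over the 73 and 0.08 over the 9622 other genes above the rule. The ratios of the chaperones were also less spread, with an SD of 0.17 over the 73 and 0.21 over all genes, and 67 of the 73 lay in the range that holds the central 90% of all genes, from -0.22 to 0.38.

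Among genes with a mean signal of at least 1000, the chaperones were not less spread than all genes. Dimmer chaperones were not set beside genes of like brightness. The mean signal was at least 1000 for 35 of the 73 chaperones and for 2089 of all 9695 genes above the rule. Of these 35, 0 passed the limit of 25% higher or that of 20% lower, against 0.67% and 0.191% of the 2089. The interquartile range of log2 ratios was 0.15 for the 73 chaperones and 0.20 for all genes above the rule. Among the bright genes it was 0.15 for the 35 chaperones and 0.12 for all 2089. The bright chaperones had a median log2 ratio of 0.09, against 0.08 for all bright genes. The 5 genes past these limits were all dimmer than that, where probe sets of 1 gene also differed more.

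**Figure D1:**
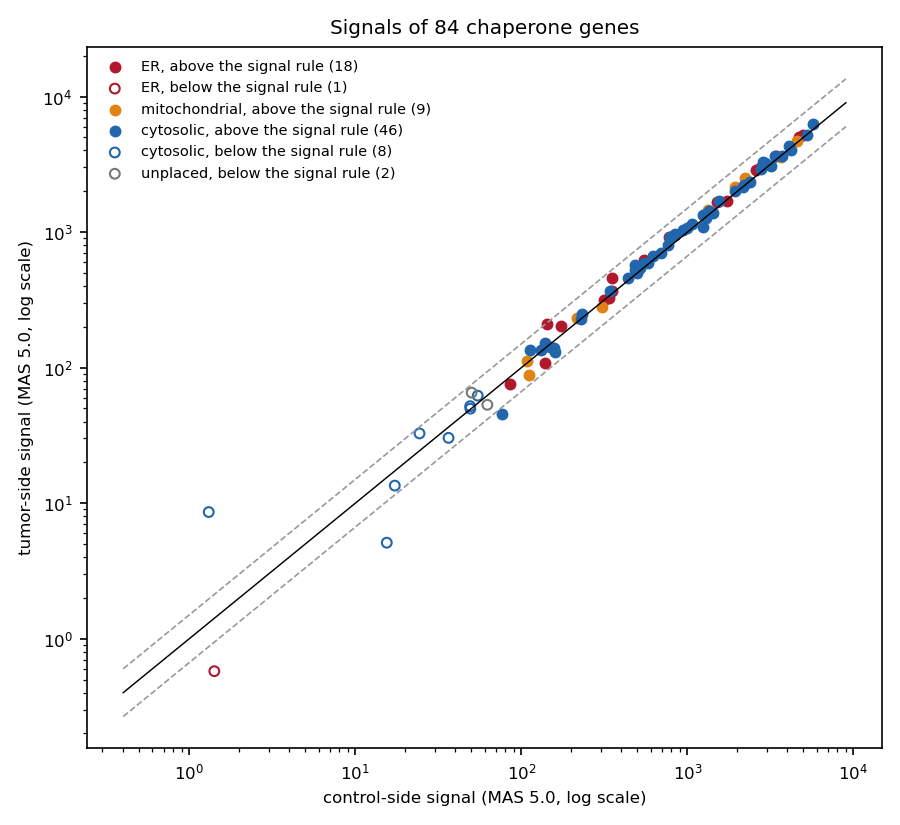
Tumor-side signal (vertical axis) against control-side signal (horizontal axis) for the 84 chaperone genes, both as MAS 5.0 signals on log scales, with filled circles above and open circles below the signal rule, the solid line at equal signals and dashed lines at a fold of 1.5. All filled circles but 1, Dnajb5 with 45.8 on the tumor side and 76.1 on the control side, lie between the dashed lines, and the widest departures are open circles at dim signals.

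ER chaperones had the highest median of the compartments. Over the 18 of 19 ER genes above the rule it was 0.11, and 11 of 18 (61.1%) were above the median gene. Over 46 of 54 cytosolic genes it was 0.07 with 22 of 46 (47.8%) above the median gene, and over all 9 mitochondrial genes it was 0.07 with 4 of 9 (44.4%) above it. The ER median exceeded the cytosolic one by 0.04 and the mitochondrial one by 0.05 on the log2 scale, and the mitochondrial median differed from the cytosolic one by -0.01. How far such differences would vary between animals was not measured. With chaperones of a mean signal of at least 1000 alone, the mitochondrial median of 0.13 stood above the ER median of 0.10 and the cytosolic median of 0.07, so the order of ER and mitochondrion turned with the brightness of the genes kept.

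**Figure D2:**
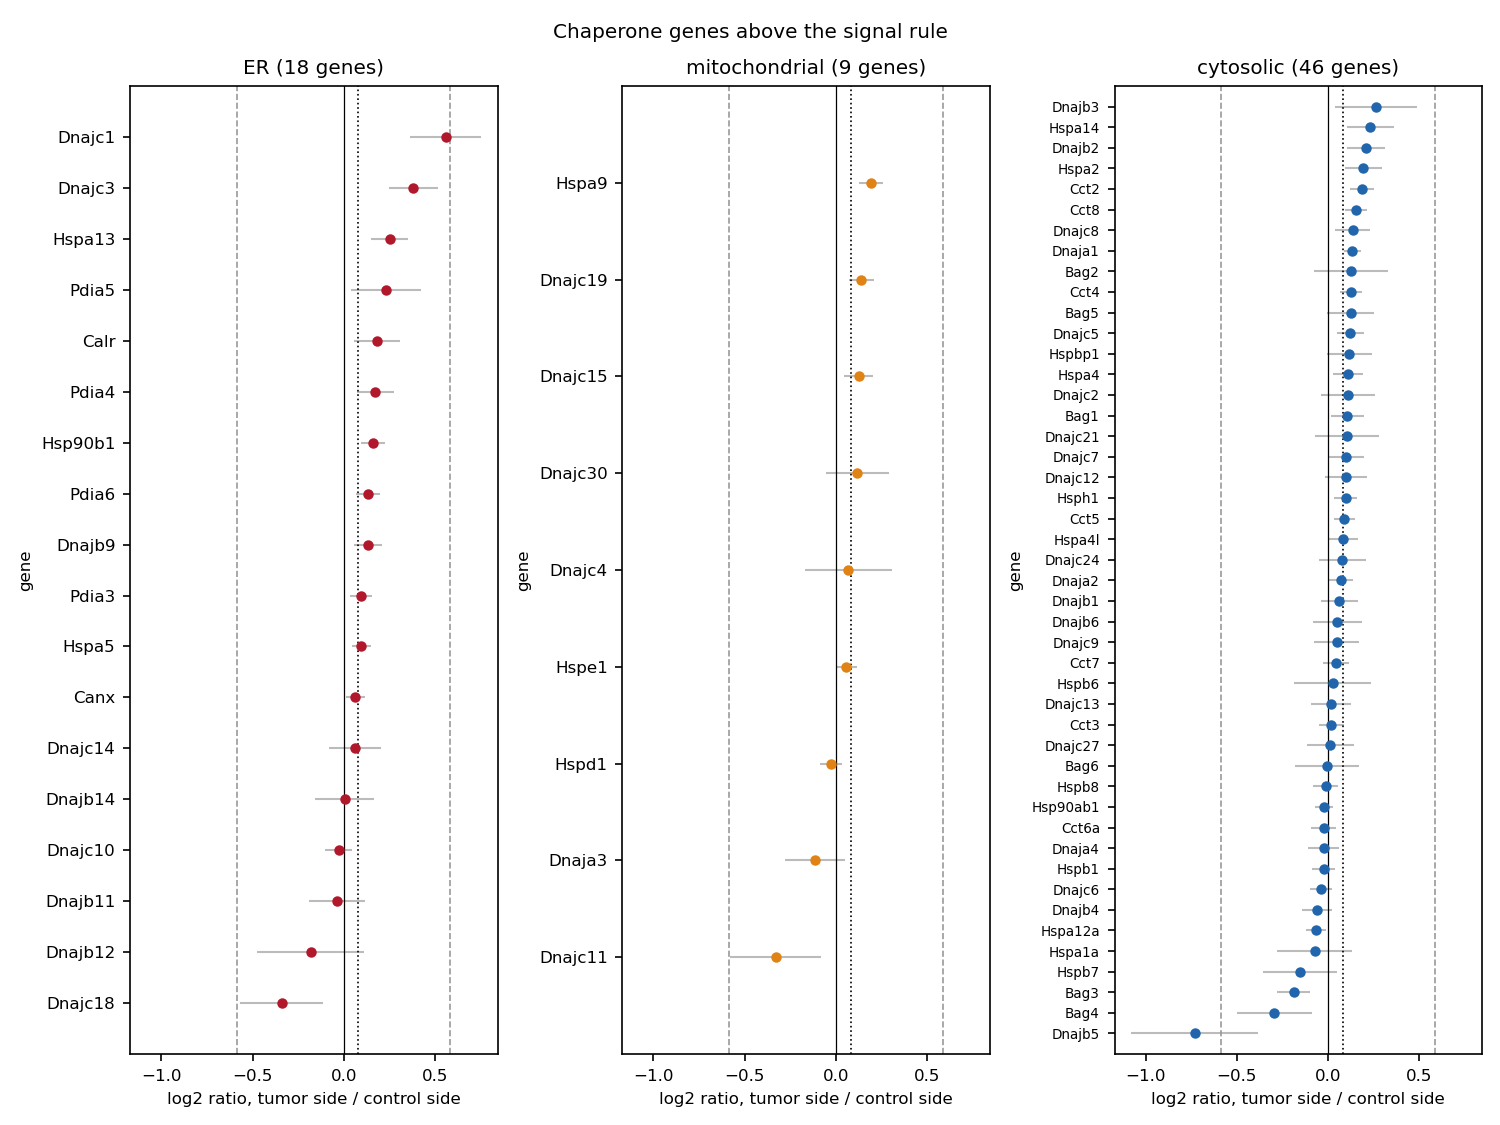
Log2 ratio, tumor side to control side (horizontal axis), for each of the 73 chaperone genes above the signal rule, by compartment, with horizontal bars of 1 SD between probe sets of the same gene at like signal, a dotted line at the median gene (0.08) and dashed lines at a fold of 1.5. Ratios run from -0.34 to 0.56 for ER, from -0.33 to 0.19 for mitochondrial and from -0.73 to 0.26 for cytosolic genes, and the 3 distributions overlap.

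The ER list held contrasting groups, a split made after the values were seen. The 9 ER genes above the rule that are not J proteins were all higher on the tumor side. So were 52 of all 73 chaperones and 6871 of all 9695 genes above the rule. The log2 ratios of the 9 ran from 0.06 to 0.25 with a median of 0.16, and 8 of the 9 were above the median gene. After median centring or quantile normalization 8 of the 9 stayed positive, and after loess all 9 did. With a mean signal of at least 1000 alone, the 5 of these genes that were kept had a median of 0.10, against 0.08 over all genes of that brightness. Hspa5 (BiP) had a signal of 5010 on the tumor side and 4687 on the control side, a log2 ratio of 0.10. Hsp90b1, which encodes GRP94, had 2895 on the tumor side and 2590 on the control side, a log2 ratio of 0.16. Hspa13, an Hsp70 of microsomes, had 919 on the tumor side and 773 on the control side, at 0.25 the highest ratio of the 9. These values lay on the side where most genes lay, and the excess of Hspa5 over the median gene was only 0.02 on the log2 scale.

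The lectin chaperones and disulfide isomerases gave similar values. Calr, which encodes calreticulin, had 618 on the tumor side and 545 on the control side (log2 ratio 0.18). Canx, which encodes the membrane-bound calnexin, had 5183 on the tumor side and 4963 on the control side (log2 ratio 0.06), and its 2 other probe sets gave 0.14 and 0.19. Canx was thus the ER gene of this group that stayed below the median gene on its brightest probe set, but not on the others. Pdia3 (ERp57), the isomerase that works with both lectins, had 3660 on the tumor side and 3421 on the control side (log2 ratio 0.10), and its second probe set also gave 0.10. Pdia4 had 947 on the tumor side and 840 on the control side (log2 ratio 0.17). Pdia5 had 204 on the tumor side and 174 on the control side (log2 ratio 0.23). All 4 isomerases above the rule were above the median gene, with a median of 0.15, and Pdia6 had 2982 on the tumor side and 2718 on the control side. The pancreatic isomerase gene Pdia2 was close to the floor of both arrays, at 0.58 on the tumor side and 1.42 on the control side, and no fold is given for it.

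The 9 ER J proteins held both the highest and the lowest ratios of the compartment, with a median of 0.01 and 3 of 9 above the median gene. Dnajc1, a membrane J protein of the ER, had 211 on the tumor side and 143 on the control side, a log2 ratio of 0.56, and a dimmer probe set with 44.0 and 30.1 gave 0.55 while the dimmest, with 14.4 and 16.4, gave -0.19. Dnajc3, which encodes p58IPK, an inhibitor of the stress kinase PERK and a BiP partner, had 461 on the tumor side and 354 on the control side, a log2 ratio of 0.38, on its only probe set. Dnajc18 had 109 on the tumor side and 138 on the control side, a log2 ratio of -0.34, also on its only probe set. The SD between probe sets of 1 gene at these signals was 0.19 for Dnajc1, 0.13 for Dnajc3 and 0.23 for Dnajc18. Dnajb9 (ERdj4), which brings BiP to the stress sensor IRE1, had 1661 on the tumor side and 1517 on the control side (log2 ratio 0.13). Dnajb11 (ERdj3), a BiP partner that can be secreted, had 327 on the tumor side and 335 on the control side (log2 ratio -0.04). Dnajb12 had 75.2 on the tumor side and 85.3 on the control side (log2 ratio -0.18), but a probe set just below the signal rule gave 0.17. Dnajc10 (ERdj5), a J protein that reduces disulfides, gave -0.03 and 0.13 on its 2 probe sets, so its side depended on the probe set.

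The ratios can be set beside the promoter elements. The 5 genes with an ER stress element, Hspa5, Hsp90b1, Calr, Canx and Dnajc3, had log2 ratios of 0.06 to 0.38 with a median of 0.16, and the 11 other ER genes above the rule with a promoter had a median of 0.06. This contrast overlaps the split by J proteins, since of the 5 only Dnajc3 is one and the ER J proteins had a median of 0.01. Hspa5, Hsp90b1, Calr and Canx, which hold the element and are not J proteins, ran from 0.06 to 0.18. Hspa13, Pdia3, Pdia4, Pdia5 and Pdia6, which are neither J proteins nor among the 5, ran higher, from 0.10 to 0.25. Whether the element goes with the ratio apart from that split was not tested. Outside the chaperones, 9 genes above the rule had the element, with a median of 0.16 and 5 of 9 above the median gene, against 0.08 over the 8087 genes without it. The 5 genes with a 3-unit heat shock element had a median of 0.10 and a range of -0.03 to 0.13, and the 56 other chaperones above the rule with a promoter had 0.08. For the 2-unit element the order was the opposite, with a median of 0.05 over the 18 chaperones that hold it and 0.10 over the 43 others above the rule. Outside the chaperones, the 33 genes above the rule with the 3-unit element had a median of 0.03, with 11 above the median gene. The 958 such genes with the 2-unit element had a median of 0.09, with 509 above the median gene. Over all genes above the rule without the element, the median was 0.08 for either element.

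**Figure D3:**
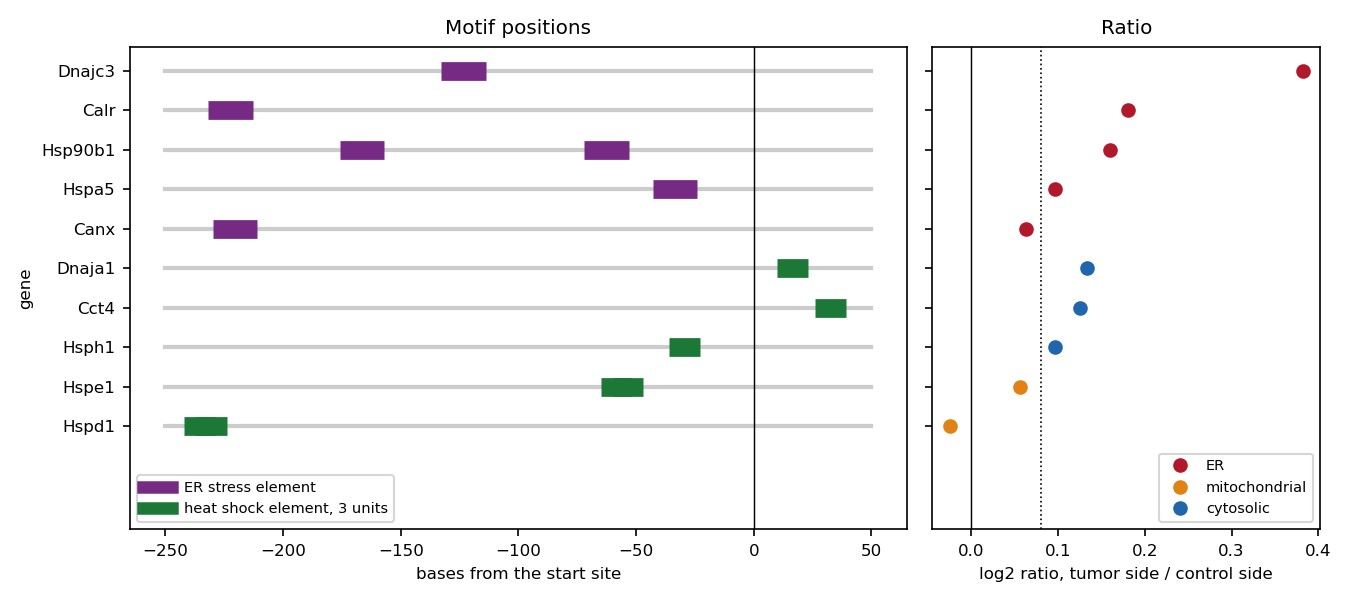
Positions of the ER stress element and of the 3-unit heat shock element in the promoters that hold them (left, bases from the start site), and log2 ratios (tumor side to control side) of the same genes (right), with a dotted line at the median gene. The 5 genes with an ER stress element run from 0.06 (Canx) to 0.38 (Dnajc3) and the 5 with a heat shock element from -0.03 (Hspd1) to 0.13 (Dnaja1), and the 2 ranges overlap.

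Mitochondrial chaperones showed no common direction. Hspa9 (mortalin), the Hsp70 of the matrix that also pulls proteins in, had 2521 on the tumor side and 2208 on the control side, a log2 ratio of 0.19. Its second probe set above the rule gave 0.19 as well. Its 2 dim probe sets, with signals of 17.0 to 30.2, gave -0.83 and -0.07. Hspd1 (Hsp60), the matrix chaperonin, had 3608 on the tumor side and 3672 on the control side (log2 ratio -0.03). Hspe1 (Hsp10), its lid, had 4732 on the tumor side and 4553 on the control side (log2 ratio 0.06). The chaperonin and its lid, which share a promoter region, thus both lay below the median gene, within 0.11 of it on the log2 scale. Dnajc15 and Dnajc19, J proteins of the import motor of the inner membrane, had 1457 and 2135 on the tumor side, against 1336 and 1938 on the control side, with log2 ratios of 0.13 and 0.14. Dnaja3 (Tid1), the J protein that serves Hspa9 in the matrix, had 282 on the tumor side and 305 on the control side (log2 ratio -0.11). Dnajc11, a J protein of the membrane contact sites that shape cristae, had 88.9 on the tumor side and 112 on the control side, a log2 ratio of -0.33. A dimmer probe set of Dnajc11 went the other way, with 68.4 on the tumor side and 52.9 on the control side, so its mean over 3 probe sets was 0.14.

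Cytosolic Hsp70, Hsp90 and Hsp110 genes ranged from -0.07 to 0.23, with a median of 0.09 over the 8 of 10 above the rule. Hsp90ab1, the constitutive Hsp90, had 5196 on the tumor side and 5280 on the control side (log2 ratio -0.02), and its second probe set gave 0.03. Hspa4 and Hspa4l, which belong to the Hsp110 branch of nucleotide exchange factors, had log2 ratios of 0.11 and 0.08. Hsph1 (Hsp105), of the same branch, had 3103 on the tumor side and 2904 on the control side (log2 ratio 0.10). All 3 were above the median gene, by 0.03 at most. Hspa14, which works at the ribosome, had 567 on the tumor side and 483 on the control side (log2 ratio 0.23). Hspa2, best known from the testis, had 960 on the tumor side and 841 on the control side (log2 ratio 0.19), and 327 and 263 on a second probe set. Hspa12a, a distant Hsp70 relative, was lower, with 4020 on the tumor side and 4211 on the control side (log2 ratio -0.07). Hspa1l had 5.11 on the tumor side and 15.5 on the control side, and Hspa12b had 30.3 and 36.4, and these 2 were below the rule.

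The naming rule lists a few genes that heat and proteotoxic stress induce, and it does not list all such genes. Hspa1a, the inducible Hsp70, had 142 on the tumor side and 149 on the control side, a log2 ratio of -0.07, and its transcript is nearly identical to that of Hspa1b, so the assignment is uncertain. A probe set that the annotation gives to both genes had 281 on the tumor side and 316 on the control side (log2 ratio -0.17). Dnajb1, the main J protein of the heat shock response, had 796 on the tumor side and 763 on the control side (log2 ratio 0.06). Hspb1 (Hsp27), a small heat shock protein abundant in SNs, had 3668 on the tumor side and 3731 on the control side (log2 ratio -0.03). Bag3, which takes clients of small heat shock proteins to autophagy, had 1084 on the tumor side and 1236 on the control side, a log2 ratio of -0.19 where the SD between probe sets was 0.09. Of these listed genes, Hsph1 was above the median gene by 0.02 and the others were below it. Dnaja1, which carries a heat shock element and was not on this list, was above it by 0.05. Probe sets given to several symbols were not used for any gene. That of Hspa8 had 9671 on the tumor side and 10090 on the control side (log2 ratio -0.06). Those of Hsp90aa1 had 11770 on the tumor side and 11910 on the control side, and 9547 and 9654 on another, with log2 ratios of -0.02 and -0.02. Those of Dnajb6 had 1389 on the tumor side and 1219 on the control side (log2 ratio 0.19), and 254 and 241 on another (log2 ratio 0.08). The dimmer of these was below the probe set used for Dnajb6 in signal, and the brighter was above it. The probe set used gave 0.05.

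Small heat shock proteins hold unfolding proteins without using ATP. Of those that the symbol rule lists, 4 were above the signal rule. All 4 were below the median gene, with log2 ratios of -0.16 to 0.03. They stayed below it after median centring, quantile normalization and loess. With the mean over probe sets the median of the 4 was 0.02, against 0.09 over all genes. Cryab, a small heat shock protein outside the symbol rule, is counted below among the co-chaperones. It was above the median gene, with 1832 on the tumor side and 1642 on the control side (log2 ratio 0.16). Hspb8, the partner of Bag3, had 2136 on the tumor side and 2157 on the control side (log2 ratio -0.01), and 0.07 on its second probe set. Hspb6 had 134 on the tumor side and 132 on the control side (log2 ratio 0.03). Hspb7, known from heart and skeletal muscle, had 141 on the tumor side and 157 on the control side (log2 ratio -0.16), with 0.18 on a dimmer probe set. The 3 others were below the rule, Hspb2 with 62.1 on the tumor side and 54.6 on the control side, Hspb3 with 49.8 and 49.3, and Hspb9 with 32.7 and 24.4. Several of these genes and Bag3 are also expressed in muscle, whose markers were lower on the tumor side in 9 of 10 measured, mostly at dim signals. SN markers lay at a like place, with a median of -0.02 and 1 of 8 above the median gene. The 4 small heat shock proteins of the symbol rule had a median of -0.02 and 0 of 4 above it. The part of muscle or SN RNA in these ratios was not tested.

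Cytosolic J proteins had a median of 0.07 over the 20 of 23 above the rule, and 9 of 20 were above the median gene. Dnaja1, which has a heat shock element, had 6232 on the tumor side and 5682 on the control side (log2 ratio 0.13), and its second probe set gave 0.12. Dnajb2, a J protein of neurons that passes clients to the proteasome, had 913 on the tumor side and 790 on the control side (log2 ratio 0.21). Dnajb3 had 135 on the tumor side and 112 on the control side (log2 ratio 0.26), the highest cytosolic ratio, near the SD of 0.23 at its signal. Dnajb5 had the lowest ratio of all 73, with 45.8 on the tumor side and 76.1 on the control side, a log2 ratio of -0.73. It was the 1 chaperone that met the signal rule by its control-side signal only, and its other 2 probe sets, all signals of which were at or below 4.06, gave -0.44 and 0.81. The SD between probe sets at its signal was 0.35.

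The cytosolic chaperonin genes had a median of 0.09 over 7 Cct genes, from -0.02 for Cct6a to 0.19 for Cct2, with 4 of 7 above the median gene. Subunits of this ring, which folds actin and tubulin, thus differed among themselves by up to 0.21 on the log2 scale. The 6 Bag genes had a median of 0.05, and they ran from Bag4, a regulator of receptor signalling with 131 on the tumor side and 160 on the control side (log2 ratio -0.29), to 0.13 for Bag2. Bag1, which also binds the proteasome, had 1152 on the tumor side and 1071 on the control side (log2 ratio 0.11). Where a chaperone had several probe sets above the rule, as 17 did, they lay on 1 side of 0 for 11 genes and differed by a median of 0.05 and at most 0.16, for Cct5.

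Partners of the chaperones outside the symbol rule gave values like theirs. Of 21 listed co-chaperones, 20 were measured and above the rule, 0 were past the limits of 25% higher or 20% lower, and their median was 0.10 with 11 of 20 above the median gene. The highest were subunits of prefoldin, which hands actin and tubulin to the chaperonin, with 3060 on the tumor side and 2468 on the control side for Pfdn4 (log2 ratio 0.31) and 2748 and 2309 for Pfdn5 (log2 ratio 0.25). The lowest were Fkbp5, a glucocorticoid-induced Hsp90 partner, with 178 on the tumor side and 198 on the control side (log2 ratio -0.16), and Ptges3 (p23) with 5502 and 5762 (log2 ratio -0.07). The regulators of the heat shock response were not higher as a group. Hsf1, the master factor, had 124 on the tumor side and 146 on the control side (log2 ratio -0.24), Hsf4 had 91.7 and 108 (log2 ratio -0.24), Hsf2 had 1270 and 1156 (log2 ratio 0.14), and Hsbp1, a negative regulator of Hsf1, had 2146 and 2140.

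Sensors and targets of ER stress split evenly. Of 27 listed, 26 were measured and 24 above the rule, 12 of 24 were above the median gene, the median was 0.09, and 0 were past the same limits. Ero1b and Erp44, which oxidise and retain secretory proteins, were highest, with 551 and 485 on the tumor side, against 458 and 412 on the control side, log2 ratios of 0.27 and 0.23. Ero1a, the related oxidase, was lowest with 440 on the tumor side and 516 on the control side (log2 ratio -0.23), followed by Herpud1, which serves degradation from the ER, with 440 and 510 (log2 ratio -0.21). The transcription factors Xbp1, Atf4 and Ddit3 (CHOP), named after their values were seen, had log2 ratios of 0.16, 0.13 and -0.01. Beside these 12 of 24, the whole ER chaperone list had 11 of 18 genes above the median gene. Its part without J proteins had 8 of 9, but that part was split off after the values were seen.

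Genes of mitochondrial protein quality control had a median of 0.16 over 10 of 10, with 7 above the median gene and 2 at least 25% higher, against 7.54% of all genes. Timm44, which anchors Hspa9 at the import channel, had 105 on the tumor side and 72.5 on the control side (log2 ratio 0.54). A dim probe set of Timm44, with 0.82 on the tumor side and 12.5 on the control side, went the other way, and with the mean over probe sets Timm44 counted as lower, at -1.70 (log2). Afg3l2, an inner membrane protease, had 412 on the tumor side and 310 on the control side (log2 ratio 0.41). The lowest were the protease genes Htra2, with 422 on the tumor side and 446 on the control side (log2 ratio -0.08), and Lonp1, with 301 and 285 (log2 ratio 0.08). The median of this list stood above that of the 9 mitochondrial chaperones, 0.07.

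**Figure D4:**
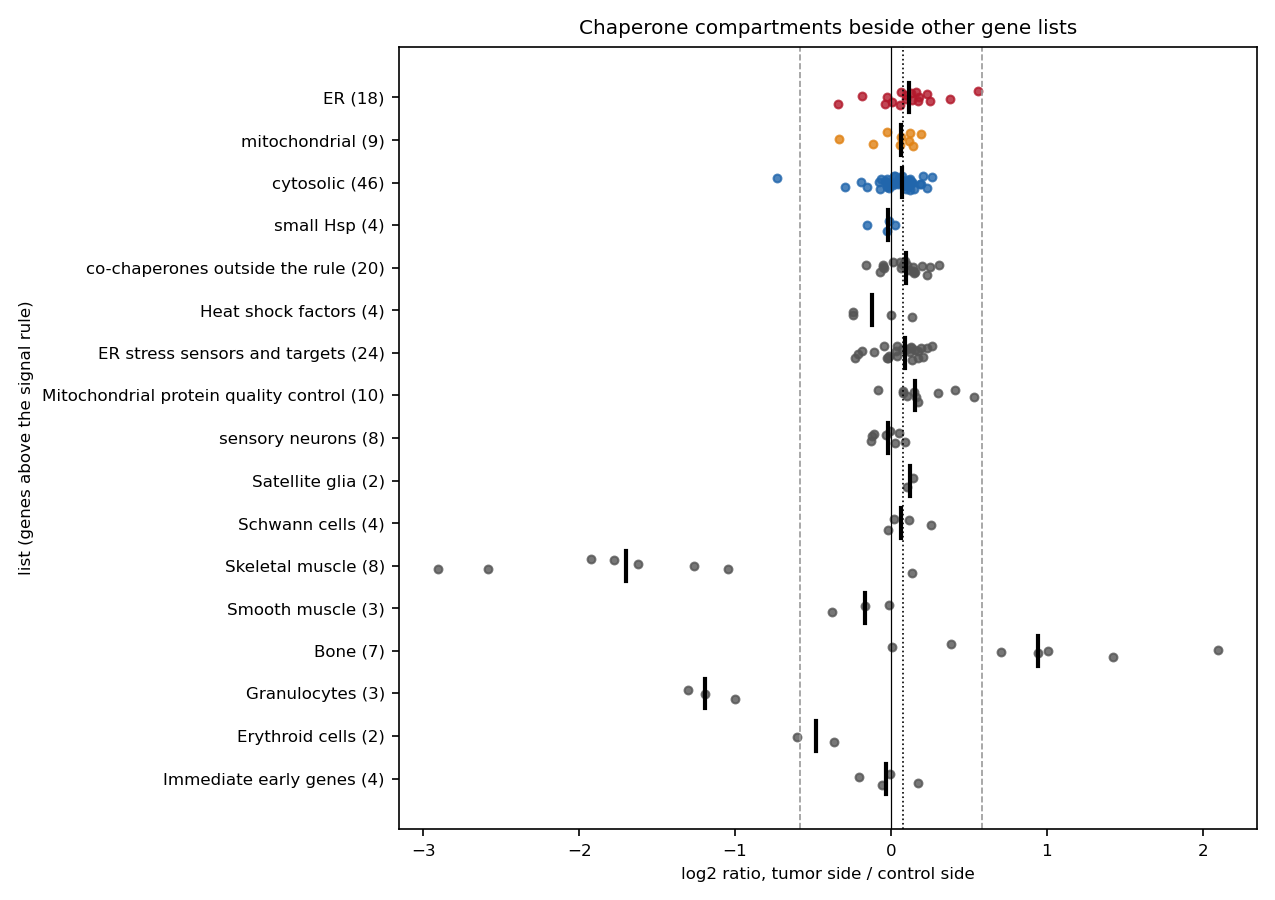
Log2 ratio, tumor side to control side (horizontal axis), of each gene above the signal rule in the chaperone compartments, the small heat shock proteins, the related pathway lists and the cell type marker lists, with vertical bars at the medians, a dotted line at the median gene and dashed lines at a fold of 1.5. Chaperone and pathway lists have medians between -0.12 and 0.16, while the medians of skeletal muscle (-1.70, with 6 of 8 genes above the rule on the control side only), granulocyte (-1.19) and bone (0.95) markers lie outside the dashed lines.

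Positions of the compartments relative to all genes were small under every processing tried. The ER median exceeded that of all genes by 0.02 to 0.05 on the log2 scale under the 11 processings, the reported one included. The cytosolic median lay between -0.02 and 0.00 from it and the mitochondrial one between -0.03 and 0.05, so the mitochondrial side of the median gene changed with the processing. Ratios between 0 and the median gene, such as those of Canx, Hspe1, Dnajb1 and Hspb6, turned negative after median centring, so their direction rests on whether the brighter tumor-side array is taken at face value.

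**Figure D5:**
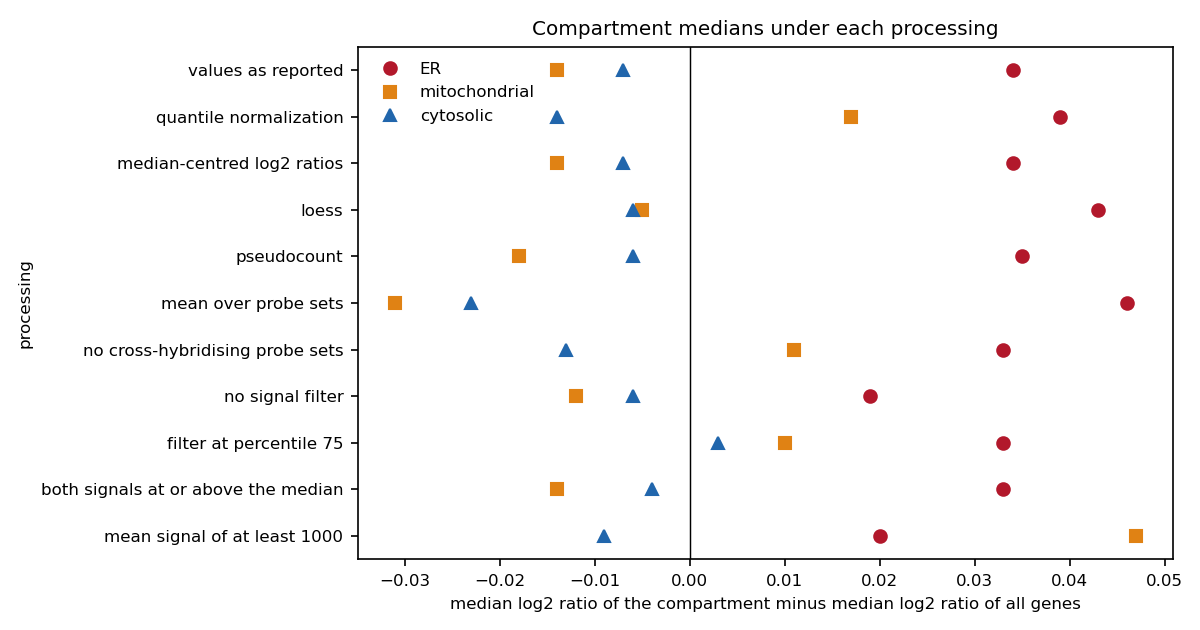
Median log2 ratio of each chaperone compartment minus the median log2 ratio of all genes (horizontal axis) under each processing (rows). ER circles lie at 0.02 to 0.05 in all 11 rows, cytosolic triangles near 0, and mitochondrial squares on either side of 0.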

How the data were processed

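The authors computed signal intensity values with MAS 5.0 at default settings and deposited these, as linear values, for 31099 probe sets on each of 2 arrays, 1 per side. The scaling target is not stated by those sources. From these intensity values tumor-to-control log2 ratios were computed, with no pseudocount and no further normalization. The 57 control probe sets and those with no symbol or several symbols were left out, which kept 20826 probe sets with 1 symbol. No detection calls were used.

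The chaperones, compartments, pathway and marker lists were chosen with earlier results of these data known. Single arrays allowed no test, so counts past a fold stand beside the same counts over all genes. The number of arrays limits the precision. Genes were named if past a fold of 1.5, among the 3 highest or lowest of a compartment or the 5 brightest, if they were Hsp70, Hsp90, Hsp110, small or inducible heat shock genes or main ER chaperones, or among the 2 highest or lowest of a pathway list. Other names were chosen after values were seen.

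Alternatives were quantile normalization, median centring, loess with a span of 0.3, a pseudocount of 11.1, the mean over probe sets, leaving out probe sets open to cross-hybridisation, a signal filter at percentile 75, on both sides in place of either, or none, and other folds (2, and 25% higher or 20% lower). A mean signal of at least 1000 was added after the values were seen. The steps were tested on simulated data. The software was matplotlib 3.10.9, statsmodels 0.14.6, pandas 2.3.3, numpy 2.4.6 and Python 3.11.15.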

Additional observations from a re-analysis of the deposited data

How the results depend on the processing

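Over the processings tried, the reported one included, ER minus cytosolic medians ran between 0.03 and 0.07 on the log2 scale. ER minus mitochondrial ran between -0.03 and 0.08, negative only with a mean signal of at least 1000, and mitochondrial minus cytosolic between -0.01 and 0.06, with either sign. Counts past the fold are small and moved. Higher on the tumor side were 0 chaperones as reported, 1 with the mean over probe sets (Dnajb2, through a probe set with 8.92 on the tumor side and 2.35 on the control side) or with no signal filter, and 2 at the limit of 25% higher, both of them ER genes. Lower was 1, Dnajb5, as reported, 3 with no filter or at the limit of 20% lower, and 0 with the mean over probe sets, the filter at percentile 75, the filter on both sides, a fold of 2 or a mean signal of at least 1000. Among cytosolic genes, 1 was higher with the mean over probe sets or no filter, and lower were 2 with no filter and 0 with the mean over probe sets, the filter at percentile 75, the filter on both sides, a fold of 2 or a mean signal of at least 1000. At the limit of 20% lower there were 1 mitochondrial and 1 ER gene, and with no filter 1 ER gene was lower. The filters kept between 35 and 84 chaperones. No paired analysis was possible because there is 1 array per side. Near a signal of 30 the SD between probe sets was 0.56, so folds of the 11 chaperones below the rule cannot be read.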
